A study of Penicillium oxalicum with 12 samples.

Results

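Amino acid biosynthesis was described through 74 genes of the filamentous fungus Penicillium oxalicum, out of 9931 genes in the deposited expression table. They were chosen by name alone. Each gene carried 1 distinct KEGG Orthology name, a label of enzyme function, that matched a set of enzyme words such as argininosuccinate, tryptophan synthase, isopropylmalate, homocitrate or cystathionine. Grouped by product, 15 genes belonged to the sulfur amino acids, 4 to threonine and homoserine, 18 to the branched-chain amino acids, 16 to the aromatic amino acids, 4 to histidine, 3 to arginine, 8 to lysine and 6 to glutamate, glutamine and asparagine. The words also caught 3 genes of other pathways. PDE_04377 and PDE_05614 are folylpolyglutamate synthases, which lengthen the glutamate tail of folates, and PDE_06295 is a 3-hydroxyanthranilate 3,4-dioxygenase, an enzyme of tryptophan breakdown. Another 9 genes matched but carried more than 1 KEGG name and were left out.

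RNA was measured in mycelia of 4 strains with 3 libraries each, 12 in all. Beside the wild type 114-2 (WT) these were DlaeA, which lacks the gene laeA, and H2BK123A and H2BK131A, whose histone H2B carries alanine at position 123 or 131 in place of lysine. In every strain conidia were grown for 22 h at 30 °C in VMM medium with 2% glucose, and the washed mycelia then spent 24 h in Mandel's medium with 2% glucose. The sources used here give neither the parent strain of each mutant nor the number of clones behind it. Whether replicate libraries had separate cultures is not stated either, and the p-values below then measure only a spread between libraries that may be technical.

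Fungi make every protein amino acid from central carbon compounds and ammonium. Ammonium enters through glutamate dehydrogenase, glutamine synthetase and glutamate synthase, and the families branch from aspartate, pyruvate, 2-oxoglutarate and chorismate. Lysine is made by the alpha-aminoadipate route, which plants and most bacteria lack. In budding yeast and in Aspergillus and Neurospora, starvation for a single amino acid raises enzymes of many of these pathways at once, through the activator called GCN4 in yeast and CPC1 or CpcA in filamentous fungi. LaeA is known in Aspergillus as a methyltransferase-like regulator of secondary metabolism and development, and H2B is a core histone of the nucleosome.

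Levels were deposited as FPKM (fragments per kilobase of transcript, relative to all mapped fragments). Fold changes below are log2 differences of FPKM + 1 between strain means ± SE. They were tested with limma over all 9431 genes that reached an FPKM of 1 in at least 3 libraries, and a gene is called higher or lower at a Benjamini-Hochberg adjusted p under 0.05. Of the 74 genes, 72 were tested. The other 2, PDE_03695 and PDE_06741, carry the name of the large subunit of acetolactate synthase, and their FPKM ranged from 0 to 0.07 and from 0 to 0.74 over the 12 libraries.

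PDE_00584, which no description names and which was taken for laeA from recalled work, had an FPKM of 34.9, 37.9 and 33.9 in WT, 0.11, 0.05 and 0 in DlaeA, 33.8, 33.4 and 35.5 in H2BK123A and 39.4, 39.1 and 33.6 in H2BK131A. It was near 0 in the 3 libraries labelled as its deletion and at a similar level in the other strains. Histone H2B itself (PDE_01489) averaged 1107 ± 75.5 in WT, 736 ± 52.2 in DlaeA, 953 ± 55 in H2BK123A and 1092 ± 30.1 in H2BK131A (mean ± SD, n = 3), values in which a changed codon cannot be seen. Without counts, read depth is not known. FPKM summed to between 709484 and 764699 per library, with the 3 highest sums in H2BK131A, and between 157 and 284 genes were at 0. The WT libraries differed from each other more than those of any mutant. Over the 72 genes the SD of the log2 difference was 0.946 between WT 1 and WT 2, 0.769 between WT 2 and WT 3 and 0.449 between WT 1 and WT 3, against 0.099 to 0.310 within the mutants. DlaeA 2 and 3 were the pair at 0.099.

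The amino acid biosynthesis genes were more abundant as a group in H2BK131A. Their summed FPKM made up 0.522, 0.388 and 0.528% of the library in WT, 0.532, 0.586 and 0.587% in DlaeA, 0.575, 0.509 and 0.529% in H2BK123A, and 1.23, 1.35 and 1.45% in H2BK131A. The 3 H2BK131A libraries stood above all 9 others, while the ranges of H2BK123A and WT overlapped. In FPKM the sum was 3454 ± 524 in WT, 4115 ± 236 in DlaeA, 3916 ± 253 in H2BK123A and 10194 ± 748 in H2BK131A (SD, n = 3). Of the net gain of 6740.3 FPKM from WT to H2BK131A, 45.1% came from 4 genes: the ketol-acid reductoisomerase PDE_02091, the glutamine synthetase PDE_08346, the methionine synthase PDE_03660 and the tryptophan synthase beta chain PDE_07951. The 10 genes with the largest gains together gave 64.3%. The samples were bulk mycelia, in which more cells of a type and more RNA per cell cannot be told apart.

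**Figure D1:**
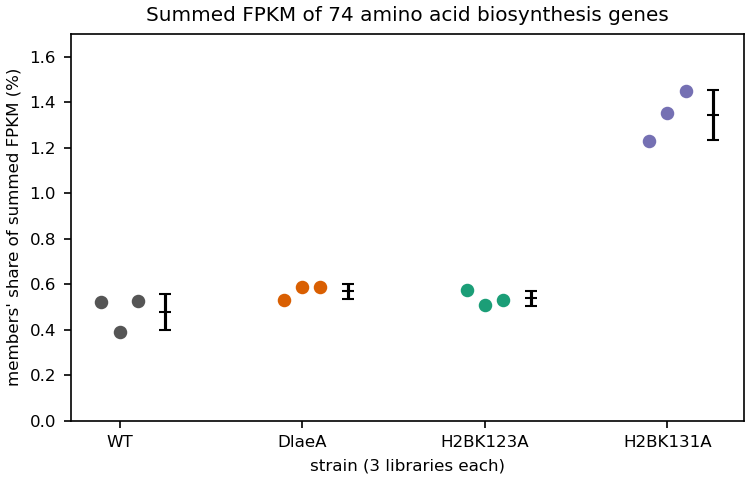
Share of each library's summed FPKM (percent, y axis) held by the 74 amino acid biosynthesis genes, by strain. Points are libraries and bars give the mean ± SD of 3. The H2BK131A libraries lie between 1.23 and 1.45%, and the 9 others between 0.388 and 0.587%.

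Gene by gene, 50 of the 72 tested genes were higher and 12 lower in H2BK131A than in WT, with 10 not called. That is 69.4% higher and 16.7% lower, against 40.6% and 30.2% of all 9431 genes in the same directions. The median log2 fold change was 1.10 for these genes and 0.13 for all tested genes. In DlaeA, 38 were higher and 20 lower than in WT (52.8% and 27.8%), against 46.3% and 23.6% of all genes, and the median was 0.34 against 0.27. In H2BK123A, 29 were higher and 13 lower (40.3% and 18.1%), against 33.5% and 13.1%, with a median of 0.18 both for these genes and for all. The shares in DlaeA and H2BK123A lay close to those of all genes, and the share higher in H2BK131A did not. All 3 comparisons use the same WT libraries.

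Scaling bore on the weaker comparisons. With median ratio scaling, which moves the median of all genes from 0.27 to 0.02 in DlaeA and from 0.18 to -0.02 in H2BK123A, the split became 26 higher and 25 lower in DlaeA and 22 and 20 in H2BK123A. With quantile normalization it was 30 and 23 in DlaeA and 22 and 17 in H2BK123A. The shares of all genes called under these scalings are not given here, so the splits alone cannot be set against them. The median of the 72 genes in H2BK131A was 0.94 and 0.92 under these scalings, against -0.03 and 0.00 for all genes. In DlaeA it was 0.08 and 0.15, against 0.02 and 0.09. With median ratio scaling it was -0.03 in H2BK123A, against -0.02. Leaving out the folylpolyglutamate synthases and the dioxygenase gave 48 higher and 11 lower of 69 in H2BK131A. Leaving out WT 2 gave 49 and 13 of 72, again without the share of all genes under that setting.

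**Figure D2:**
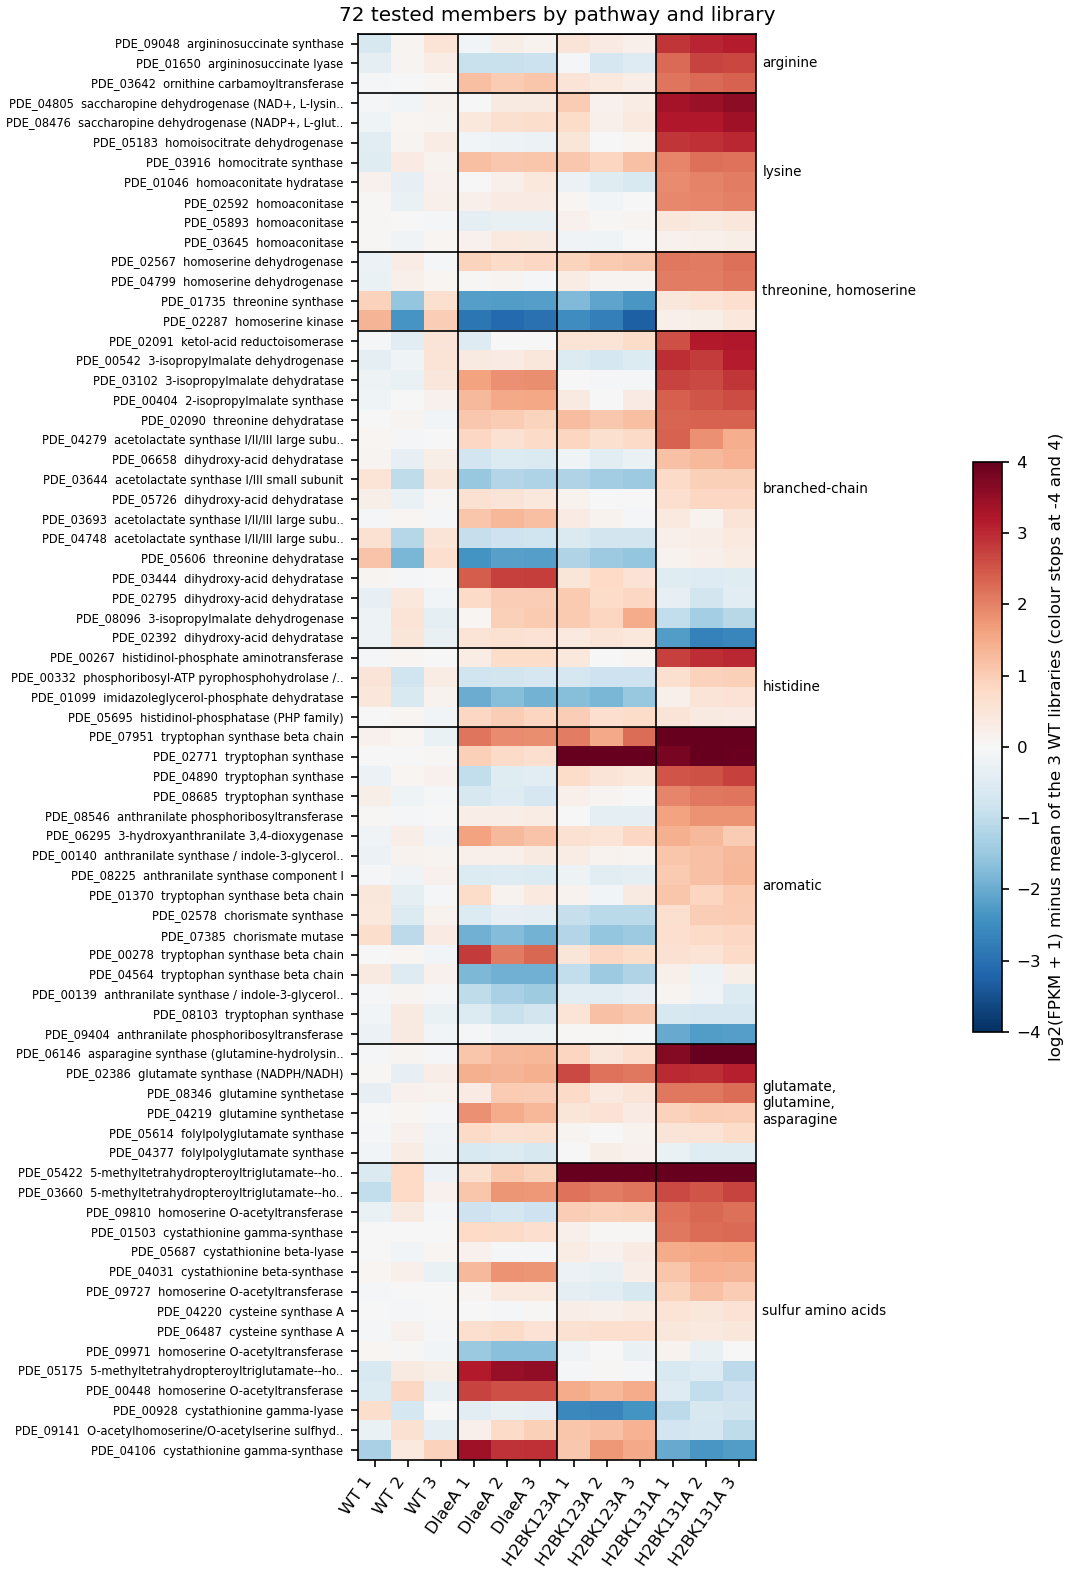
Difference of log2(FPKM + 1) from the mean of the 3 WT libraries (colour, stopping at -4 and 4) for the 72 tested genes in rows and the 12 libraries in columns, with genes ordered within a pathway by their fold change in H2BK131A. Red prevails in the 3 H2BK131A columns for arginine and lysine, and each other pathway holds rows of both colours in some strain.

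The pathways differed in how evenly they moved. In H2BK131A all 3 arginine genes (median log2 fold change 2.54) and 7 of 8 lysine genes (2.04) were higher and none was lower. Of the aromatic genes 11 of 16 were higher and 2 lower (1.09), of the branched-chain genes 10 of 16 and 4 (0.83), and of the sulfur genes 9 of 15 and 5 (0.52). In DlaeA the largest medians were those of glutamate, glutamine and asparagine (5 of 6 higher, 1 lower, 1.01) and of the sulfur genes (10 of 15 higher, 2 lower, 0.67), and the threonine and homoserine genes had the lowest (1 of 4 higher, 2 lower, -1.09). H2BK123A had 9 sulfur genes higher and 2 lower (0.26). Across the 12 libraries the median Pearson r of log2(FPKM + 1) was 0.87 among the arginine genes, 0.80 among the lysine genes, 0.24 among the branched-chain genes and 0.04 among the sulfur genes, against 0.42 over all 2556 pairs. These are descriptions over libraries that share 4 strains.

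**Figure D3:**
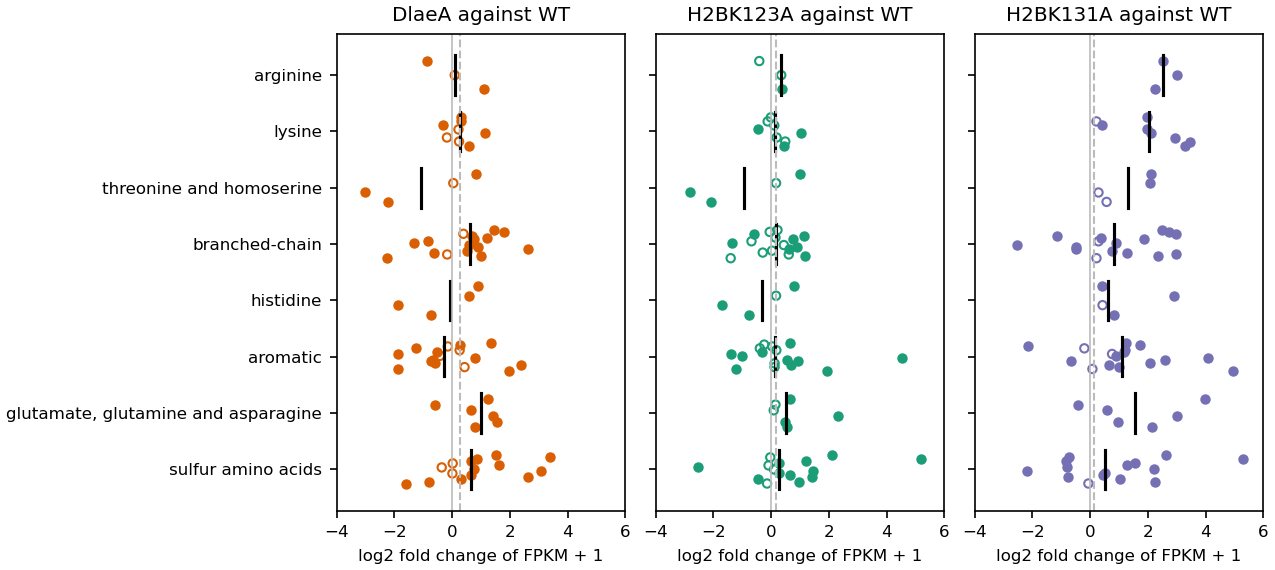
Log2 fold change of FPKM + 1 against WT (x axis) for each tested gene, by pathway (rows) and mutant (panels). Filled points were called by limma, open points were not, black bars are pathway medians and the dashed line is the median of all tested genes. In H2BK131A the arginine and lysine medians stand at 2.54 and 2.04, and the sulfur and branched-chain points spread on both sides of 0.

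The last steps of arginine synthesis rose together in H2BK131A. Ornithine carbamoyltransferase, which joins ornithine and carbamoyl phosphate to citrulline, is encoded by PDE_03642, at an FPKM of 48.4, 51.9 and 54.8 in WT, 121, 105 and 113 in DlaeA, 73.7, 68.6 and 61.7 in H2BK123A and 231, 252 and 269 in H2BK131A. Argininosuccinate synthase PDE_09048, which adds aspartate, was at 22.8, 39.2 and 53.2 in WT, 33.3, 42.7 and 40.5 in DlaeA, 52.3, 45.5 and 42.1 in H2BK123A and 269, 308 and 330.1 in H2BK131A. Argininosuccinate lyase PDE_01650, which releases arginine, was at 21.1, 30.4 and 34.5 in WT, 14.9, 14.6 and 15.2 in DlaeA, 27.2, 17.4 and 19.3 in H2BK123A and 138, 190.3 and 183 in H2BK131A. In each of the 3 genes all H2BK131A libraries lay above all 9 others. The log2 fold changes against WT were 2.25 ± 0.10 (adjusted p = 5.63e-09) for PDE_03642, 3.02 ± 0.24 (adjusted p = 3.87e-07) for PDE_09048 and 2.54 ± 0.20 (adjusted p = 3.57e-07) for PDE_01650. In DlaeA the same 3 genes did not move together, since PDE_03642 rose (1.12 ± 0.10, adjusted p = 1.87e-06), PDE_01650 fell (-0.88 ± 0.20, adjusted p = 0.00194) and PDE_09048 was at 0.09 ± 0.24 (adjusted p = 0.758). PDE_03642 was also higher in H2BK123A (0.39 ± 0.10, adjusted p = 0.00938), a call that ended with median ratio scaling (0.17, adjusted p = 0.233).

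In lysine synthesis the genes of the first and the last steps rose in H2BK131A. Homocitrate synthase PDE_03916, which opens the alpha-aminoadipate route, was at 29.6, 53.4 and 46.7 in WT, 97.2, 89.5 and 92.6 in DlaeA, 90.7, 77.7 and 95.2 in H2BK123A and 164, 197 and 193 in H2BK131A. It stood above WT in all 3 mutants, at 1.13 ± 0.18 (adjusted p = 0.000158) in DlaeA, 1.04 ± 0.18 (adjusted p = 0.000775) in H2BK123A and 2.11 ± 0.18 (adjusted p = 7.85e-07) in H2BK131A. Homoisocitrate dehydrogenase PDE_05183 forms 2-oxoadipate and was at 22.3, 32.4 and 37.3 in WT, 28, 25.9 and 25.2 in DlaeA, 42.6, 29.7 and 32 in H2BK123A and 225, 236 and 252 in H2BK131A. The saccharopine dehydrogenases carry out the last steps, PDE_08476 forming saccharopine from aminoadipate semialdehyde and glutamate and PDE_04805 releasing lysine. PDE_08476 was at 19.1, 23.1 and 23.6 in WT, 29.9, 35 and 36 in DlaeA, 36.6, 25.2 and 29 in H2BK123A and 211, 209 and 240.1 in H2BK131A. PDE_04805 was at 14.5, 13.8 and 16.6 in WT, 15.2, 19.2 and 19.3 in DlaeA, 31.3, 17 and 18.4 in H2BK123A and 159, 172 and 189.5 in H2BK131A. In these 3 genes, too, every H2BK131A library stood above the rest, with log2 fold changes against WT of 2.94 ± 0.17 (adjusted p = 3.97e-08) for PDE_05183, 3.27 ± 0.14 (adjusted p = 3.7e-09) for PDE_08476 and 3.45 ± 0.19 (adjusted p = 2.62e-08) for PDE_04805.

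The 4 genes named homoaconitase or homoaconitate hydratase, the enzyme between homocitrate and homoisocitrate, differed in their calls. PDE_02592 rose in H2BK131A from 33.1, 26.7 and 37.4 to 124, 128 and 132 (1.96 ± 0.11, adjusted p = 3.72e-08), and PDE_01046 from 15.2, 10.7 and 15.2 to 52.6, 55.9 and 59 (1.97 ± 0.15, adjusted p = 3.62e-07). PDE_05893 rose from 34.7, 33.8 and 32.8 to 46.5, 43.1 and 47 (0.42 ± 0.08, adjusted p = 0.000466). PDE_03645 was at 29.7, 26 and 29.9 in WT and 32.4, 33.2 and 34.7 in H2BK131A and was not called (0.22 ± 0.10, adjusted p = 0.0575). In DlaeA, PDE_05893 fell (-0.31 ± 0.08, adjusted p = 0.00377), while PDE_03645 was higher (0.30 ± 0.10, adjusted p = 0.0154), a call lost without DlaeA 2 or DlaeA 3 in turn (0.26 to 0.28, adjusted p = 0.0543 to 0.0649) and with median ratio scaling (0.03, adjusted p = 0.852). PDE_01046 was lower in H2BK123A (-0.44 ± 0.15, adjusted p = 0.0342), and this call was lost without H2BK123A 2, H2BK123A 3, WT 1 or WT 3 in turn (-0.42 to -0.36, adjusted p = 0.084 to 0.123). PDE_01046 and PDE_05183 are given here after their values were seen, as are the other genes named by function that no rule picked: PDE_02091, PDE_00404, PDE_00267, PDE_00332, PDE_05695, PDE_02567, PDE_08225, PDE_00140, PDE_00139 and PDE_06295.

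On the way from aspartate to threonine, the early and the late steps moved differently. Homoserine dehydrogenase supplies homoserine for threonine and for methionine. Its gene PDE_04799 was at 17.5, 25 and 22.5 in WT, 22.3, 23.2 and 20.6 in DlaeA, 26.8, 23 and 23.2 in H2BK123A and 91.4, 92.6 and 98.1 in H2BK131A, and PDE_02567, of the same name, at 4.17, 6.53 and 4.82 in WT, 10.3, 9.45 and 9.83 in DlaeA, 10.3, 11.7 and 11.9 in H2BK123A and 25.2, 24.7 and 26.9 in H2BK131A. Both rose in H2BK131A (2.08 ± 0.12, adjusted p = 3.9e-08 and 2.12 ± 0.13, adjusted p = 5.62e-08), and PDE_02567 also rose in DlaeA (0.83 ± 0.13, adjusted p = 0.000147) and H2BK123A (1.01 ± 0.13, adjusted p = 0.00013). The 2 steps from homoserine to threonine instead fell in DlaeA and H2BK123A. Homoserine kinase PDE_02287 was at 201, 14.3 and 154 in WT, 9.46, 8.13 and 8.83 in DlaeA, 13.1, 10.8 and 7.14 in H2BK123A and 88.7, 92 and 103 in H2BK131A. Threonine synthase PDE_01735 was at 222, 39.4 and 186 in WT, 24.9, 24.1 and 25 in DlaeA, 34, 26.3 and 22.6 in H2BK123A and 162, 175 and 190.2 in H2BK131A. For both genes every DlaeA and H2BK123A library lay below every WT and H2BK131A library, and WT 2 lay far below WT 1 and WT 3.

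The log2 fold changes of PDE_02287 were -3.0 ± 0.72 (adjusted p = 0.00277) in DlaeA and -2.82 ± 0.72 (adjusted p = 0.00745) in H2BK123A, and those of PDE_01735 -2.21 ± 0.48 (adjusted p = 0.00145) and -2.07 ± 0.48 (adjusted p = 0.0044). The size depended on WT 2. Without it PDE_02287 was at -4.18 (adjusted p = 1.47e-08) in DlaeA and -4.0 (adjusted p = 1.95e-07) in H2BK123A, and without WT 1 at -2.32 (adjusted p = 0.0108) and -2.14 (adjusted p = 0.0279). For PDE_01735 the values without WT 2 were -2.99 (adjusted p = 2.11e-08) and -2.85 (adjusted p = 2.24e-07). In H2BK131A neither gene was called (0.29 ± 0.72, adjusted p = 0.732 and 0.57 ± 0.48, adjusted p = 0.305), but without WT 2 PDE_02287 was lower there (-0.89, adjusted p = 0.00192).

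The same shape, with WT 2 well below WT 1 and WT 3, ran through further genes of the branched-chain, aromatic and histidine pathways. Threonine dehydratase PDE_05606, which commits threonine to isoleucine, was at 262, 32.1 and 189 in WT, 21.6, 25.1 and 24.7 in DlaeA, 50.9, 42 and 39.6 in H2BK123A and 130.0, 136 and 146 in H2BK131A. The large subunit of acetolactate synthase, the enzyme shared by valine, leucine and isoleucine, is encoded by PDE_04748, at 242, 70.9 and 228 in WT, 82.7, 88 and 90.2 in DlaeA, 105, 94.6 and 95.5 in H2BK123A and 181, 191 and 207 in H2BK131A, and its small regulatory subunit by PDE_03644, at 233, 77.8 and 218 in WT, 54.2, 69.4 and 66.6 in DlaeA, 68.8, 59.6 and 57.5 in H2BK123A and 272, 309 and 307 in H2BK131A. Threonine dehydratase and the small subunit were lower in every DlaeA library than in every WT library, whereas WT 2 lay below the DlaeA and H2BK123A libraries of PDE_04748. In DlaeA the log2 fold changes were -2.26 ± 0.56 (adjusted p = 0.00342) for PDE_05606, -1.31 ± 0.32 (adjusted p = 0.00312) for PDE_03644 and -0.85 ± 0.35 (adjusted p = 0.0452) for PDE_04748. The last call was lost without DlaeA 1, DlaeA 2, DlaeA 3, WT 1 or WT 3 in turn (-0.88 to -0.55, adjusted p = 0.0797 to 0.178), and PDE_05606 was at -3.18 (adjusted p = 1.11e-08) without WT 2. In H2BK123A, PDE_03644 fell (-1.34 ± 0.32, adjusted p = 0.00523), and PDE_05606 (-1.40 ± 0.56, adjusted p = 0.0582) and PDE_04748 (-0.68 ± 0.35, adjusted p = 0.13) were not called with all libraries but were lower without WT 2 (-2.32, adjusted p = 7.1e-07 and -1.25, adjusted p = 1.83e-06).

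In H2BK131A, PDE_05606 and PDE_04748 lay within the spread of WT (0.22 ± 0.56, adjusted p = 0.736 and 0.29 ± 0.35, adjusted p = 0.476). Without WT 2 both were called lower (-0.70, adjusted p = 0.00125 and -0.28, adjusted p = 0.0165). PDE_03644 was higher in H2BK131A (0.90 ± 0.32, adjusted p = 0.025), a call lost without H2BK131A 2 or H2BK131A 3 in turn (0.86 to 0.87, adjusted p = 0.0618 to 0.0633) and with either other scaling, for example 0.72 (adjusted p = 0.0945) with median ratio scaling. Without WT 2 its rise there was smaller (0.39, adjusted p = 0.0149). Over the 72 genes WT 2 was the lowest WT library in 28 and the highest in 30, and over all 9431 tested genes it was the lowest in 1844 and the highest in 5585. The spore wall gene DIT1 (PDE_01188), 1 of 4 genes picked by name as markers of asexual structures, had the same shape in WT, at 376, 5.93 and 164. BrlA (PDE_00087) and FlbD (PDE_03008) did not. They were at 5.67, 19.7 and 28.9 and at 63.8, 98.2 and 138 in WT, with WT 2 between WT 1 and WT 3. Another gene named BrlA (PDE_00079) was low, at 0.58, 0.15 and 0.43. The part of asexual structures in the WT values of the biosynthesis genes was not tested.

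**Figure D4:**
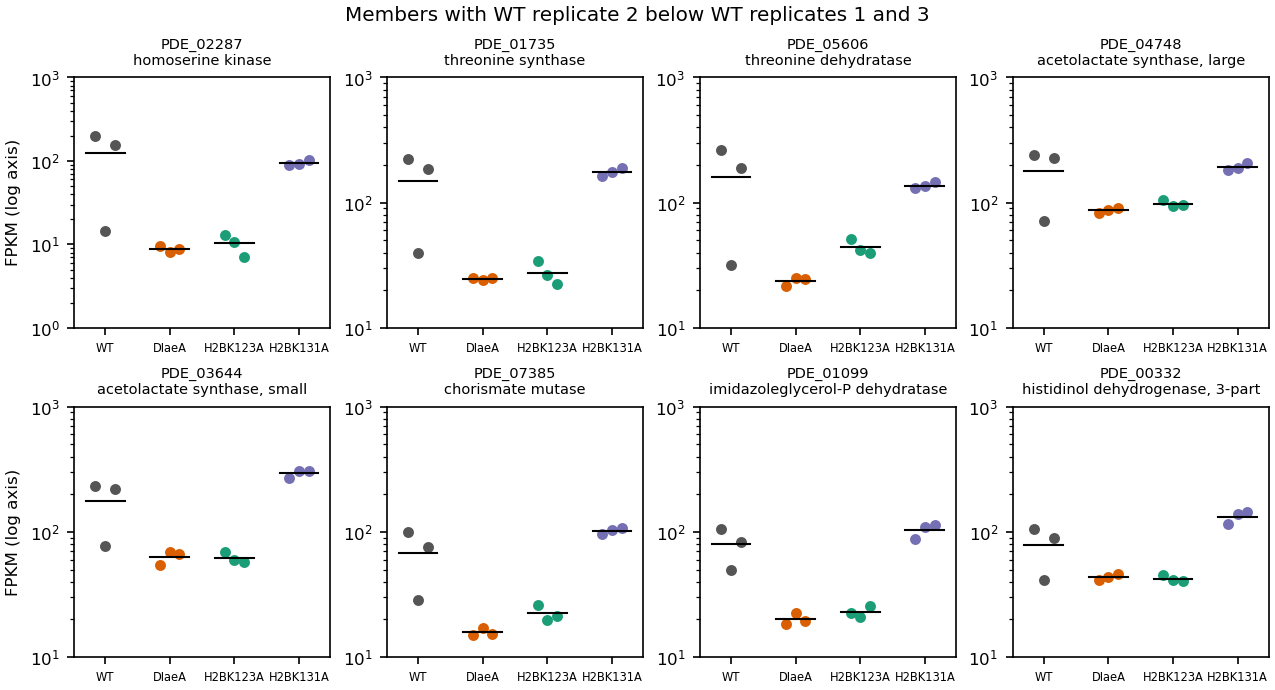
FPKM (log axis) by strain for 8 genes in which WT replicate 2 lay below WT replicates 1 and 3. Points are libraries in the order of their replicate numbers and lines are means of 3. For homoserine kinase PDE_02287 the WT points are 201, 14.3 and 154, and the DlaeA points lie between 8.13 and 9.46.

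Other branched-chain steps rose in H2BK131A. Ketol-acid reductoisomerase PDE_02091, the step after acetolactate synthase, was at 114, 89.8 and 173 in WT, 84.7, 121 and 121 in DlaeA, 177, 178 and 205 in H2BK123A and 732, 1105 and 1132 in H2BK131A and rose there (2.99 ± 0.24, adjusted p = 4.97e-07). The leucine branch begins with 2-isopropylmalate synthase PDE_00404, at 23.3, 26.3 and 29.9 in WT, 66.9, 77.7 and 79.4 in DlaeA, 34.1, 25.8 and 33.6 in H2BK123A and 142, 155 and 167 in H2BK131A. It continues with 3-isopropylmalate dehydratase PDE_03102, at 13.7, 13.1 and 21.8 in WT, 50.6, 59.1 and 60.1 in DlaeA, 15.8, 14.8 and 14.9 in H2BK123A and 108, 103 and 120.3 in H2BK131A, and 3-isopropylmalate dehydrogenase PDE_00542, at 7.72, 9.1 and 15.6 in WT, 13.5, 13.3 and 14.7 in DlaeA, 6.75, 6 and 6.68 in H2BK123A and 87.2, 77.3 and 98.8 in H2BK131A. The first 2 leucine genes rose in DlaeA (1.46 ± 0.13, adjusted p = 1.6e-06 and 1.78 ± 0.16, adjusted p = 1.7e-06) and further in H2BK131A (2.50 ± 0.13, adjusted p = 1.62e-08 and 2.73 ± 0.16, adjusted p = 3.9e-08), and in H2BK123A neither was called (0.22 ± 0.13, adjusted p = 0.188 and -0.05 ± 0.16, adjusted p = 0.807). Set directly against DlaeA, H2BK131A was higher for PDE_00404 (1.04 ± 0.13, adjusted p = 1.63e-05) and PDE_03102 (0.95 ± 0.16, adjusted p = 0.000178). PDE_00542 rose in H2BK131A (2.96 ± 0.19, adjusted p = 8.93e-08) and was lower in H2BK123A (-0.60 ± 0.19, adjusted p = 0.0245), the latter lost without H2BK123A 1, H2BK123A 2, H2BK123A 3 or WT 3 in turn (-0.63 to -0.33, adjusted p = 0.0508 to 0.0729).

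Genes that share a name went apart. PDE_08096, the other 3-isopropylmalate dehydrogenase, was at 11.8, 20.7 and 10.6 in WT, 14.7, 27.7 and 29.4 in DlaeA, 29.9, 26.1 and 40.5 in H2BK123A and 6.54, 4.75 and 5.93 in H2BK131A. It was lower in every H2BK131A library than in any WT library (-1.14 ± 0.29, adjusted p = 0.0035), where PDE_00542 rose, and it rose in H2BK123A (1.14 ± 0.29, adjusted p = 0.00693). Its call in DlaeA (0.69 ± 0.29, adjusted p = 0.0472) was lost without DlaeA 2, DlaeA 3, WT 1 or WT 3 in turn (0.52 to 0.59, adjusted p = 0.124 to 0.168) and under both other scalings. The 5 dihydroxy-acid dehydratases, which make the oxo acids of valine and isoleucine, split as well. PDE_02392 fell in H2BK131A from 17.6, 28.8 and 16.6 to 3.52, 2.26 and 2.49 (-2.52 ± 0.18, adjusted p = 2.12e-07). PDE_03444 rose in DlaeA from 8.14, 6.91 and 7.27 to 43.9, 54.8 and 55.8 (2.63 ± 0.12, adjusted p = 5.8e-09) and was lower in H2BK131A, at 4.97, 4.91 and 4.99 (-0.50 ± 0.12, adjusted p = 0.00319).

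The dehydratase PDE_02795 rose in DlaeA (0.91 ± 0.18, adjusted p = 0.000784) and H2BK123A (0.88 ± 0.18, adjusted p = 0.00224) and was lower in H2BK131A (-0.50 ± 0.18, adjusted p = 0.0252), the last lost without H2BK131A 2 or WT 2 in turn (-0.39 to -0.29, adjusted p = 0.0873 to 0.105). PDE_06658 and PDE_05726 went the other way in H2BK131A. PDE_06658 rose from 53.7, 39.4 and 59 to 113, 123 and 133 (1.28 ± 0.14, adjusted p = 6.72e-06) and PDE_05726 from 61.2, 42.3 and 52.6 to 82.5, 91.5 and 91.8 (0.77 ± 0.12, adjusted p = 0.000158), and PDE_06658 fell in DlaeA (-0.62 ± 0.14, adjusted p = 0.00202). The second threonine dehydratase, PDE_02090, lies next to PDE_02091 in locus number and rose in all 3 mutants, from 24.4, 25.8 and 22 to 125, 126 and 126 in H2BK131A (2.34 ± 0.09, adjusted p = 2.02e-09). It was at 0.99 ± 0.09 (adjusted p = 1.91e-06) in DlaeA and 1.17 ± 0.09 (adjusted p = 4.06e-06) in H2BK123A. The 2 low genes PDE_04279 and PDE_03693, named as acetolactate synthase large subunit, stayed under an FPKM of 5 in every library. PDE_04279 was at 0.21, 0.07 and 0.14 in WT and 4.83, 3.05 and 2.13 in H2BK131A (1.88 ± 0.19, adjusted p = 4.02e-06), and PDE_03693 at 0.07, 0.15 and 0.07 in WT and 1.36, 1.78 and 1.55 in DlaeA (1.22 ± 0.15, adjusted p = 1.64e-05). Whether genes of one name share reads is not known, since the counting is not described.

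Histidine synthesis was split between its steps. Histidinol-phosphate aminotransferase PDE_00267 was at 25, 27.6 and 25.4 in WT, 32.1, 43.6 and 44.1 in DlaeA, 34.9, 26.5 and 27.3 in H2BK123A and 179, 209 and 219 in H2BK131A and rose in H2BK131A (2.91 ± 0.14, adjusted p = 1.04e-08), where all 3 libraries stood above the rest, and in DlaeA (0.59 ± 0.14, adjusted p = 0.00337). Imidazoleglycerol-phosphate dehydratase PDE_01099 was at 105, 49.9 and 83.8 in WT, 18.4, 22.5 and 19.6 in DlaeA, 22.4, 20.8 and 25.7 in H2BK123A and 88, 109 and 113 in H2BK131A. It fell in DlaeA (-1.87 ± 0.22, adjusted p = 1.43e-05) and H2BK123A (-1.69 ± 0.22, adjusted p = 0.000127), whose libraries all lay below those of WT. It was not called in H2BK131A (0.43 ± 0.22, adjusted p = 0.0984) unless WT 1 was left out (0.66, adjusted p = 0.0111). Without WT 2, its lowest WT library, it was at 0.13 there (adjusted p = 0.432). The gene PDE_00332, whose name joins 3 steps of the route, was at 106, 41.5 and 89.5 in WT, 41.6, 44 and 45.9 in DlaeA, 45.2, 41 and 40.7 in H2BK123A and 115, 139 and 144 in H2BK131A. Its lower calls in DlaeA (-0.73 ± 0.26, adjusted p = 0.0251) and H2BK123A (-0.78 ± 0.26, adjusted p = 0.0283) were lost without DlaeA 1, DlaeA 2, WT 1 or WT 3 in turn (-0.73 to -0.47, adjusted p = 0.0553 to 0.105) and without H2BK123A 1, H2BK123A 2, H2BK123A 3, WT 1 or WT 3 in turn (-0.83 to -0.52, adjusted p = 0.0532 to 0.107). In H2BK131A it was higher (0.84 ± 0.26, adjusted p = 0.0126), by a smaller amount without WT 2 (0.43, adjusted p = 0.00577). Histidinol-phosphatase PDE_05695 rose in DlaeA (0.89 ± 0.11, adjusted p = 1.85e-05), H2BK123A (0.79 ± 0.11, adjusted p = 0.000171) and H2BK131A (0.40 ± 0.11, adjusted p = 0.00548).

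In the aromatic pathway most genes of the tryptophan branch rose in H2BK131A. Tryptophan synthase, which joins indole and serine in its last step, is named in 8 genes. PDE_07951, a beta chain, was at an FPKM of 20.9, 19.8 and 15.2 in WT, 85.8, 71.7 and 70.4 in DlaeA, 78.8, 55.1 and 91.3 in H2BK123A and 514, 698 and 612 in H2BK131A. It was above WT in every library of the 3 mutants, at 1.98 ± 0.19 (adjusted p = 2.55e-06) in DlaeA, 1.94 ± 0.19 (adjusted p = 1.78e-05) in H2BK123A and 4.96 ± 0.19 (adjusted p = 1.82e-09) in H2BK131A, and H2BK131A exceeded H2BK123A by 3.02 ± 0.19 (adjusted p = 9.2e-08). PDE_02771 was at 0.15, 0.16 and 0.2 in WT, 1.28, 0.97 and 0.88 in DlaeA, 51.2, 19.9 and 17.4 in H2BK123A and 15.3, 25 and 17.1 in H2BK131A. It was near 0 in WT and rose in both H2B mutants, by 4.54 ± 0.32 (adjusted p = 2.34e-06) in H2BK123A and 4.08 ± 0.32 (adjusted p = 3.98e-07) in H2BK131A, and these 2 were not separated from each other (-0.46 ± 0.32, adjusted p = 0.219). Its small rise in DlaeA (0.80 ± 0.32, adjusted p = 0.0421) was lost without any 1 of the WT or DlaeA libraries (0.72 to 0.86, adjusted p = 0.0647 to 0.114).

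Among the 8 genes PDE_04890 had the highest FPKM in WT, a level per length, and was at 40.3, 50.6 and 54.1 in WT, 23.6, 33.8 and 34.9 in DlaeA, 81.3, 68.5 and 64.8 in H2BK123A and 279, 286 and 325 in H2BK131A. PDE_08685 was at 8.09, 5.88 and 6.31 in WT, 3.95, 4.39 and 3.83 in DlaeA, 7.95, 7.35 and 6.86 in H2BK123A and 29.1, 32.6 and 33.3 in H2BK131A. Both rose in H2BK131A (2.60 ± 0.16, adjusted p = 5.62e-08 and 2.08 ± 0.12, adjusted p = 3.72e-08) and fell in DlaeA (-0.65 ± 0.16, adjusted p = 0.00366 and -0.61 ± 0.12, adjusted p = 0.000851). PDE_08103 had another order, at 21, 29.4 and 18.5 in WT, 15.1, 11.6 and 13.1 in DlaeA, 33.3, 52.1 and 48.6 in H2BK123A and 14.1, 13.8 and 13.6 in H2BK131A. It was highest in H2BK123A (0.93 ± 0.19, adjusted p = 0.00198) and lower than WT in DlaeA (-0.73 ± 0.19, adjusted p = 0.00433) and H2BK131A (-0.66 ± 0.19, adjusted p = 0.00733). Among the low beta chains, PDE_00278 rose in DlaeA from 1.25, 1.32 and 1.06 to 14.2, 8.23 and 9.76 (2.38 ± 0.17, adjusted p = 2.59e-07). PDE_04564 fell in DlaeA from 4.37, 1.92 and 3.72 to 0.22, 0.11 and 0.11 (-1.87 ± 0.22, adjusted p = 1.49e-05) and in H2BK123A to 1.12, 0.53 and 0.81 (-1.22 ± 0.22, adjusted p = 0.00108). PDE_01370 rose in H2BK131A from 2.93, 1.17 and 1.76 to 5.13, 4.23 and 4.98 (1.01 ± 0.22, adjusted p = 0.00148). The 8 genes did not move as one, and no mutant had all of them higher or all lower.

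The steps before it also rose in H2BK131A. Anthranilate synthase component I, PDE_08225, which draws chorismate into the tryptophan branch, was at 67.8, 64.1 and 79.2 in WT, 47.8, 48.9 and 48.1 in DlaeA, 60.5, 51.8 and 54.7 in H2BK123A and 145, 159 and 176 in H2BK131A (1.17 ± 0.11, adjusted p = 1.41e-06 in H2BK131A, -0.53 ± 0.11, adjusted p = 0.000921 in DlaeA). PDE_00140, a gene for the joined anthranilate synthase and indole-glycerol phosphate steps, rose from 46.8, 60.8 and 59.6 to 121, 127 and 138 (1.20 ± 0.11, adjusted p = 2.1e-06). A second gene of that name, PDE_00139, was at 1.97, 2.31 and 1.87 in WT and 0.51, 0.23 and 0.14 in DlaeA, where it fell (-1.25 ± 0.17, adjusted p = 5.5e-05). Anthranilate phosphoribosyltransferase is named in a pair of genes that crossed. PDE_08546 was at 36.7, 33.2 and 36 in WT, 42.8, 42.3 and 44.1 in DlaeA, 35.6, 26.8 and 27.6 in H2BK123A and 111, 124 and 125 in H2BK131A. PDE_09404 was at 60.0, 90.1 and 64.5 in WT, 68.8, 61.2 and 60.5 in DlaeA, 72.9, 72.7 and 71.1 in H2BK123A and 16.5, 14.3 and 14.5 in H2BK131A. In H2BK131A PDE_08546 rose (1.73 ± 0.11, adjusted p = 6.88e-08) and PDE_09404 fell (-2.15 ± 0.14, adjusted p = 6.49e-08), each with its 3 libraries clear of the other 9.

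Chorismate synthase PDE_02578, which makes the branch point of the 3 aromatic amino acids, was at 123, 61.7 and 100.4 in WT, 61.8, 72.2 and 71.4 in DlaeA, 48.2, 43.1 and 43.1 in H2BK123A and 144, 182 and 186 in H2BK131A. It rose in H2BK131A (0.88 ± 0.21, adjusted p = 0.00222, or 0.60, adjusted p = 0.0019 without WT 2) and fell in H2BK123A (-1.01 ± 0.21, adjusted p = 0.00206). Its value in DlaeA (-0.42 ± 0.21, adjusted p = 0.0895) was called lower without WT 2 (-0.70, adjusted p = 0.000723). Chorismate mutase PDE_07385, which leads to phenylalanine and tyrosine, was at 99.4, 28.4 and 76 in WT, 15, 17.1 and 15.3 in DlaeA, 26.2, 19.9 and 21.3 in H2BK123A and 96.1, 104 and 107 in H2BK131A. All its DlaeA and H2BK123A libraries lay below WT (-1.86 ± 0.33, adjusted p = 0.000387 and -1.39 ± 0.33, adjusted p = 0.00558). In H2BK131A it was not called (0.76 ± 0.33, adjusted p = 0.0602). It was called higher there without WT 1 or WT 3 in turn (0.92 to 1.12, adjusted p = 0.00584 to 0.0474). Without WT 2, its lowest WT library, it was at 0.23 (adjusted p = 0.153) and not called. The tryptophan breakdown enzyme PDE_06295, caught by its name, rose in DlaeA (1.36 ± 0.16, adjusted p = 1.44e-05), H2BK123A (0.66 ± 0.16, adjusted p = 0.00565) and H2BK131A (1.25 ± 0.16, adjusted p = 2.36e-05).

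Glutamate synthase and asparagine synthase, which take the amide of glutamine, rose in all 3 mutants. Glutamine synthetase PDE_08346 had the highest mean WT FPKM of the 74 genes and was at 188, 267 and 259 in WT, 298, 475 and 470.3 in DlaeA, 397, 308 and 334 in H2BK123A and 1022, 1011 and 1103 in H2BK131A. It rose in DlaeA (0.78 ± 0.20, adjusted p = 0.00385) and H2BK131A (2.15 ± 0.20, adjusted p = 1.47e-06), and its call in H2BK123A (0.55 ± 0.20, adjusted p = 0.0387) was lost without H2BK123A 1, H2BK123A 3, WT 1 or WT 3 in turn (0.39 to 0.62, adjusted p = 0.0527 to 0.135) and with median ratio scaling (0.33, adjusted p = 0.201). A second glutamine synthetase, PDE_04219, was at 21, 22.5 and 20.3 in WT, 77.7, 61 and 54.7 in DlaeA, 30.4, 32.1 and 27.1 in H2BK123A and 41.5, 43.6 and 42.9 in H2BK131A and had its highest values in DlaeA (1.54 ± 0.12, adjusted p = 5.51e-07). Glutamate synthase PDE_02386, which passes the amide of glutamine to 2-oxoglutarate, was at 21.9, 16.5 and 25.7 in WT, 57.4, 55.9 and 58.2 in DlaeA, 136, 98.8 and 95 in H2BK123A and 175, 169 and 188 in H2BK131A. Its 4 strains did not overlap, in the order WT, DlaeA, H2BK123A and H2BK131A, with log2 fold changes of 1.40 ± 0.16 (adjusted p = 1.21e-05), 2.31 ± 0.16 (adjusted p = 2.23e-06) and 3.02 ± 0.16 (adjusted p = 1.79e-08). Asparagine synthase PDE_06146 was at 9.74, 11.1 and 9.93 in WT, 23.3, 26.6 and 27.1 in DlaeA, 19.4, 14.2 and 16.7 in H2BK123A and 141, 193 and 193 in H2BK131A and rose in DlaeA (1.24 ± 0.14, adjusted p = 1.26e-05), H2BK123A (0.65 ± 0.14, adjusted p = 0.0034) and H2BK131A (3.96 ± 0.14, adjusted p = 1.37e-09). The folate genes PDE_05614 and PDE_04377 had opposite calls in DlaeA (0.67 ± 0.10, adjusted p = 0.000125 and -0.59 ± 0.13, adjusted p = 0.00176) and in H2BK131A (0.60 ± 0.10, adjusted p = 0.000253 and -0.42 ± 0.13, adjusted p = 0.0135).

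The sulfur amino acid genes held the largest rise of the 72 genes in each mutant, each time that of a methionine synthase. Methionine synthase of the cobalamin-independent type (5-methyltetrahydropteroyltriglutamate-homocysteine methyltransferase), which methylates homocysteine, is named in 3 genes. The main one by WT level per length, PDE_03660, was at 77.8, 265 and 174 in WT, 329, 520.0 and 518 in DlaeA, 689, 639 and 686 in H2BK123A and 969.7, 886 and 1003 in H2BK131A. It rose in DlaeA (1.53 ± 0.34, adjusted p = 0.00185), H2BK123A (2.12 ± 0.34, adjusted p = 0.000521) and H2BK131A (2.63 ± 0.34, adjusted p = 2.87e-05). The 4 strains did not overlap, but H2BK123A was called neither against DlaeA (0.59 ± 0.34, adjusted p = 0.158) nor against H2BK131A (difference of H2BK131A from it 0.50 ± 0.34, adjusted p = 0.212). PDE_05422 was at 1.49, 5.49 and 2.15 in WT, 4.75, 6.66 and 5.84 in DlaeA, 157, 108 and 142 in H2BK123A and 115, 158 and 159 in H2BK131A. Both H2B mutants stood far above WT (5.19 ± 0.30, adjusted p = 8.56e-07 and 5.28 ± 0.30, adjusted p = 2.65e-08) and DlaeA, while the DlaeA call (0.86 ± 0.30, adjusted p = 0.0216) was lost without DlaeA 2, DlaeA 3, WT 1 or WT 3 in turn (0.57 to 0.84, adjusted p = 0.0521 to 0.0897). PDE_05175 had its rise in DlaeA, at 0.6, 2.13 and 1.87 in WT, 20.9, 26.1 and 27.7 in DlaeA, 1.31, 1.53 and 1.32 in H2BK123A and 0.61, 0.7 and 0.18 in H2BK131A (3.40 ± 0.24, adjusted p = 1.7e-07). Its level in H2BK131A was lower than in WT (-0.72 ± 0.24, adjusted p = 0.0167), a call lost without H2BK131A 3, WT 2 or WT 3 in turn (-0.60 to -0.54, adjusted p = 0.0646 to 0.0749).

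Cystathionine gamma-synthase, which joins cysteine to an activated homoserine, is named in 2 genes that parted in H2BK131A. PDE_01503 was at 13, 13.3 and 12.9 in WT, 23.4, 22.8 and 21.6 in DlaeA, 15.3, 13.5 and 13.4 in H2BK123A and 60.1, 64.9 and 67 in H2BK131A. PDE_04106 was at 6.12, 21.9 and 32.2 in WT, 183, 128 and 133 in DlaeA, 36, 58 and 48.8 in H2BK123A and 3.39, 2.52 and 2.71 in H2BK131A. The 4 strains of PDE_04106 did not overlap, with DlaeA highest and H2BK131A lowest. PDE_01503 rose in DlaeA (0.75 ± 0.09, adjusted p = 1.5e-05) and H2BK131A (2.21 ± 0.09, adjusted p = 2.46e-09). PDE_04106 rose in DlaeA (3.07 ± 0.43, adjusted p = 6.2e-05), was higher in H2BK123A (1.44 ± 0.43, adjusted p = 0.0174) and fell in H2BK131A (-2.19 ± 0.43, adjusted p = 0.000712). WT 1 bore on these values, which without it were 2.41 (adjusted p = 3.97e-06) in DlaeA, 0.79 (adjusted p = 0.0173) in H2BK123A and -2.84 (adjusted p = 7.88e-07) in H2BK131A. The call in H2BK123A was lost without H2BK123A 2 (1.29, adjusted p = 0.0602).

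Homoserine O-acetyltransferase activates homoserine for sulfur uptake, and its 4 genes differed in which strain was highest or lowest. PDE_00448 was at 36.7, 95.5 and 43.6 in WT, 358, 323 and 324 in DlaeA, 151, 135 and 153 in H2BK123A and 37.1, 26.7 and 29.5 in H2BK131A. It rose in DlaeA (2.62 ± 0.27, adjusted p = 5.1e-06) and H2BK123A (1.43 ± 0.27, adjusted p = 0.0014) and was lower in H2BK131A (-0.78 ± 0.27, adjusted p = 0.0226), the last lost without H2BK131A 2 or H2BK131A 3 in turn (-0.75 to -0.68, adjusted p = 0.0594 to 0.0775). PDE_09971 was at 101, 97.2 and 86.9 in WT, 33.4, 29 and 28.8 in DlaeA, 85.2, 94.4 and 79.4 in H2BK123A and 105, 77.2 and 92.8 in H2BK131A, lower in DlaeA (-1.61 ± 0.12, adjusted p = 3.98e-07) and not called in the H2B mutants. PDE_09810 fell in DlaeA from 10.3, 16.5 and 11.8 to 6.67, 7.3 and 6.62 (-0.80 ± 0.14, adjusted p = 0.000299) and rose to 26, 24.9 and 25.4 in H2BK123A (0.95 ± 0.14, adjusted p = 0.000251) and 61.1, 66.4 and 61.7 in H2BK131A (2.23 ± 0.14, adjusted p = 5.58e-08). PDE_09727 rose in H2BK131A from 22.8, 24 and 24.1 to 44.4, 54.3 and 49.1 (1.02 ± 0.11, adjusted p = 6.14e-06) and fell in H2BK123A to 18, 17.5 and 15 (-0.47 ± 0.11, adjusted p = 0.00511). Summed over calls against WT, the name had 2 higher and 2 lower in DlaeA, 2 and 1 in H2BK123A, and 2 and 1 in H2BK131A. Of these, PDE_09727 in DlaeA (0.29 ± 0.11, adjusted p = 0.0347) was lost without DlaeA 2, DlaeA 3, WT 1 or WT 3 in turn (0.25 to 0.30, adjusted p = 0.0587 to 0.115).

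Transsulfuration between cysteine and homocysteine showed its largest fall in H2BK123A. Cystathionine gamma-lyase PDE_00928, which frees cysteine from cystathionine, was at 350.0, 131 and 213 in WT, 159, 173 and 169.7 in DlaeA, 35.1, 33.2 and 40.0 in H2BK123A and 103, 136 and 127 in H2BK131A. The H2BK123A libraries lay below all 9 others (-2.54 ± 0.27, adjusted p = 2.79e-05). The gene was also lower in H2BK131A (-0.81 ± 0.27, adjusted p = 0.0161), a call lost without H2BK131A 1 (-0.70, adjusted p = 0.0613), and in DlaeA it was called without WT 2 (-0.71, adjusted p = 0.00546) but not with it (-0.36 ± 0.27, adjusted p = 0.251). Cystathionine beta-synthase PDE_04031, the step before it, was at 36.9, 39.8 and 28.6 in WT, 86.7, 125 and 120.0 in DlaeA, 29.1, 28.4 and 42 in H2BK123A and 76.3, 93.1 and 90.2 in H2BK131A and rose in DlaeA (1.62 ± 0.19, adjusted p = 1.19e-05) and H2BK131A (1.29 ± 0.19, adjusted p = 6.44e-05). Cystathionine beta-lyase PDE_05687, on the opposite route to homocysteine, rose in H2BK131A from 58.2, 54.2 and 61.6 to 165, 170.5 and 175 (1.54 ± 0.09, adjusted p = 5.21e-08) and was not called in DlaeA (0.02 ± 0.09, adjusted p = 0.873); with median ratio scaling it was called lower there (-0.26, adjusted p = 0.0471).

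Sulfide can also be added directly to acetylated homoserine or serine. O-acetylhomoserine/O-acetylserine sulfhydrylase PDE_09141 was at 3.7, 7.72 and 3.46 in WT, 5.5, 8.74 and 10.1 in DlaeA, 11.1, 11.8 and 13.9 in H2BK123A and 2.31, 2.54 and 1.81 in H2BK131A. It rose in H2BK123A (1.22 ± 0.26, adjusted p = 0.00259) and fell in H2BK131A (-0.82 ± 0.26, adjusted p = 0.0125), and its call in DlaeA (0.65 ± 0.26, adjusted p = 0.0401) was lost without DlaeA 2, DlaeA 3, WT 1 or WT 3 in turn (0.47 to 0.58, adjusted p = 0.109 to 0.152). The cysteine synthases had small log2 fold changes against WT, at most 0.67. PDE_04220 was at 57.2, 55.2 and 57 in WT, 57.6, 54.9 and 58.5 in DlaeA, 68.5, 65.3 and 70.3 in H2BK123A and 82.8, 77.3 and 84.7 in H2BK131A, with 0.52 ± 0.08 (adjusted p = 8.49e-05) in H2BK131A. In DlaeA its log2 fold change was 0.01 ± 0.08 (adjusted p = 0.9), which turned to -0.27 (adjusted p = 0.0156) with median ratio scaling. PDE_06487 rose in DlaeA (0.67 ± 0.10, adjusted p = 9.27e-05), H2BK123A (0.65 ± 0.10, adjusted p = 0.000353) and H2BK131A (0.44 ± 0.10, adjusted p = 0.00196).

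**Figure D5:**
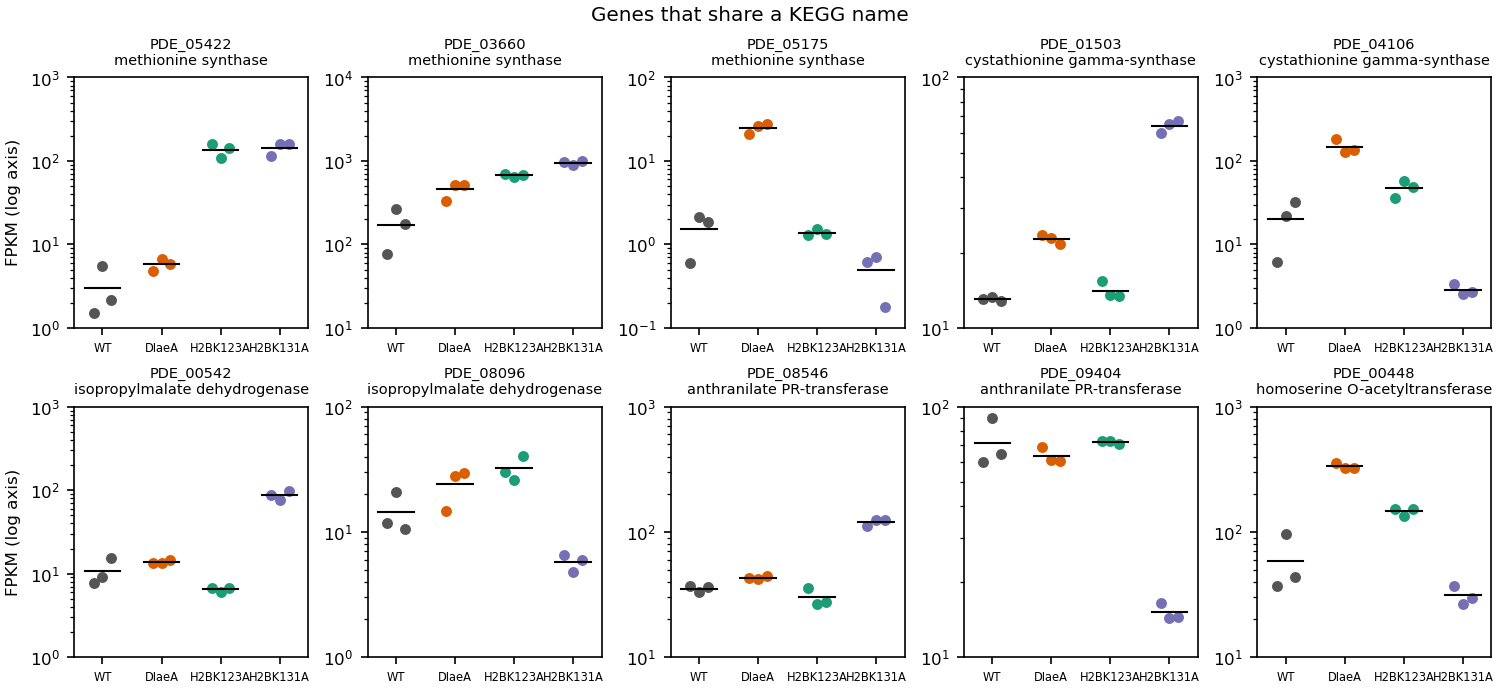
FPKM (log axis, ranges differ between panels) by strain for 10 genes that share a KEGG name with another gene of the set. Points are libraries and lines are means of 3. In H2BK131A, PDE_01503, PDE_00542 and PDE_08546 lie above WT and their namesakes PDE_04106, PDE_08096 and PDE_09404 below it.

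The mutants were also compared with each other. Against DlaeA, H2BK131A had 50 genes higher and 14 lower (69.4% and 19.4% of 72), where 36.2% and 41.3% of all genes were, with medians of 1.30 and -0.08. Against H2BK123A it had 52 higher and 12 lower (72.2% and 16.7%), where 32.9% and 35.8% of all genes were, with medians of 1.28 and -0.05. All 4 threonine and homoserine genes, all 3 arginine genes and all 8 lysine genes were higher in H2BK131A than in H2BK123A. H2BK123A against DlaeA had 15 higher and 25 lower (20.8% and 34.7%), where 28.1% and 33.1% of all genes were. None of these 3 comparisons uses a WT library for its difference, although WT enters the shared estimate of the spread.

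The largest differences included homoserine kinase and argininosuccinate lyase and, otherwise, mostly genes that share a name. Against DlaeA, H2BK131A was higher for the methionine synthase PDE_05422 (4.42 ± 0.30, adjusted p = 6.39e-08), the argininosuccinate lyase PDE_01650 (3.42 ± 0.20, adjusted p = 1.91e-08), the homoserine kinase PDE_02287 (3.29 ± 0.72, adjusted p = 0.0012) and the tryptophan synthase PDE_02771 (3.28 ± 0.32, adjusted p = 1.76e-06). It was lower for PDE_04106 (-5.25 ± 0.43, adjusted p = 3.78e-07), PDE_05175 (-4.12 ± 0.24, adjusted p = 1.72e-08), PDE_00448 (-3.40 ± 0.27, adjusted p = 2.96e-07) and PDE_03444 (-3.13 ± 0.12, adjusted p = 8.22e-10). Against H2BK123A it was higher for PDE_00542 (3.56 ± 0.19, adjusted p = 3.72e-08), the asparagine synthase PDE_06146 (3.31 ± 0.14, adjusted p = 7.86e-09) and PDE_02287 (3.11 ± 0.72, adjusted p = 0.00218), and lower for PDE_04106 (-3.63 ± 0.43, adjusted p = 1.51e-05), PDE_02392 (-2.96 ± 0.18, adjusted p = 9.2e-08), PDE_08096 (-2.29 ± 0.29, adjusted p = 2.23e-05) and PDE_00448 (-2.21 ± 0.27, adjusted p = 1.95e-05).

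H2BK123A stood above DlaeA for PDE_05422 (4.33 ± 0.30, adjusted p = 1.58e-07), PDE_02771 (3.74 ± 0.32, adjusted p = 1.21e-06), the homoserine O-acetyltransferase PDE_09810 (1.75 ± 0.14, adjusted p = 5.79e-07) and the tryptophan synthase PDE_08103 (1.66 ± 0.19, adjusted p = 1.22e-05). It stood below DlaeA for PDE_05175 (-3.43 ± 0.24, adjusted p = 1.7e-07), the cystathionine gamma-lyase PDE_00928 (-2.18 ± 0.27, adjusted p = 2.24e-05), the dihydroxy-acid dehydratase PDE_03444 (-2.01 ± 0.12, adjusted p = 6.34e-08) and the isopropylmalate dehydratase PDE_03102 (-1.83 ± 0.16, adjusted p = 1.53e-06). Neither homoserine kinase PDE_02287 nor threonine synthase PDE_01735 was called between them (0.18 ± 0.72, adjusted p = 0.846 and 0.14 ± 0.48, adjusted p = 0.817).

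Other genes of the same pathways, 78 by their KEGG names with 75 tested, had, in H2BK131A, 39 higher and 13 lower (52% and 17.3%, median 0.60), against 40.6% and 30.2% of all genes. In DlaeA they had 34 higher and 25 lower (45.3% and 33.3%, median 0.23), against 46.3% and 23.6%, and in H2BK123A 29 and 17 (38.7% and 22.7%, median 0.22), against 33.5% and 13.1%. Ornithine and carbamoyl phosphate synthesis, of which part feeds arginine, had 2 of 11 genes higher and 7 lower in DlaeA (18.2% and 63.6%). It had 1 and 6 in H2BK123A (9.09% and 54.5%), and 4 and 1 in H2BK131A (36.4% and 9.09%). The 11, and so the 78, include PDE_07967, PDE_07965 and PDE_01746, whose name joins in an enzyme of pyrimidine synthesis. In H2BK131A PDE_07967 and PDE_07965 were among the 4 higher genes and PDE_01746 was the 1 lower gene. These counts are therefore not those of the arginine supply alone. The joined acetylglutamate kinase and reductase PDE_01213 was at 808, 44.8 and 461 in WT, 17.3, 22.9 and 27.5 in DlaeA, 36.5, 25.5 and 16.9 in H2BK123A and 105, 108 and 109.6 in H2BK131A, again with WT 2 far below WT 1 and WT 3. It fell in DlaeA (-3.48 ± 0.78, adjusted p = 0.00184) and H2BK123A (-3.30 ± 0.78, adjusted p = 0.00497), and the values were -4.72 (adjusted p = 1.39e-07) and -4.55 (adjusted p = 9.13e-07) without WT 2, and -2.65 (adjusted p = 0.00604) and -2.48 (adjusted p = 0.0162) without WT 1. In H2BK131A it was not called (-1.25 ± 0.78, adjusted p = 0.17) unless WT 2 was left out (-2.50, adjusted p = 1.92e-05). Aspartate kinase PDE_02311, at the entry to threonine and methionine, had the same shape at 130.5, 8.81 and 77.6 in WT, 5.81, 6.5 and 7.84 in DlaeA, 13.2, 8.2 and 7.52 in H2BK123A and 57.2, 72.7 and 70.6 in H2BK131A (-2.60 ± 0.70, adjusted p = 0.00563 in DlaeA, -3.73, adjusted p = 2.12e-07 without WT 2 and -1.86, adjusted p = 0.0209 without WT 1).

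Sulfate reduction, which supplies sulfide for cysteine and methionine, had 8 of 9 genes higher and 1 lower, the adenylylsulfate kinase PDE_00642, in H2BK131A (88.9% and 11.1%). It had 5 and 0 in H2BK123A (55.6% and 0%) and 2 and 4 in DlaeA (22.2% and 44.4%). Of all genes, 40.6% were higher and 30.2% lower in H2BK131A, 33.5% and 13.1% in H2BK123A, and 46.3% and 23.6% in DlaeA. These shares also stand beside the counts of the lists below. Sulfite reductase alpha PDE_08788 was at 18.2, 34.6 and 27.7 in WT, 7.34, 7.13 and 8.95 in DlaeA, 75.7, 96.1 and 85.4 in H2BK123A and 88.3, 98.3 and 100.3 in H2BK131A. It fell in DlaeA (-1.62 ± 0.19, adjusted p = 1.4e-05) and rose in H2BK123A (1.68 ± 0.19, adjusted p = 4.92e-05) and H2BK131A (1.84 ± 0.19, adjusted p = 3.96e-06). Sulfate adenylyltransferase PDE_01576, the first step, rose in H2BK131A (2.41 ± 0.16, adjusted p = 8.38e-08). The shikimate and prephenate genes had 3 of 14 higher and 6 lower in H2BK131A (21.4% and 42.9%), 9 and 4 in DlaeA (64.3% and 28.6%) and 6 and 3 in H2BK123A (42.9% and 21.4%). Among them the dehydroquinate synthase PDE_00008 rose in H2BK123A to 151, 119 and 118 from WT values of 4.02, 31.9 and 5.24 (3.68 ± 0.54, adjusted p = 0.00029, or 4.53, adjusted p = 2.64e-07 without WT 2). The 3-deoxy-7-phosphoheptulonate synthase PDE_00873 fell in DlaeA (-2.69, adjusted p = 0.000237, or -3.39, adjusted p = 7.88e-08 without WT 2).

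The 2 glutamate dehydrogenases crossed between strains. PDE_06117, the NADP+ form that fixes ammonium, was at 32.2, 7.49 and 68.4 in WT, 4.26, 5.94 and 6.29 in DlaeA, 64, 40.7 and 25.8 in H2BK123A and 1039, 981 and 1144 in H2BK131A. PDE_06171, named without a cofactor and added here after its values were seen, was at 515, 773 and 528 in WT, 2079, 2643 and 2706 in DlaeA, 684, 418 and 595 in H2BK123A and 52.6, 45.8 and 53.9 in H2BK131A. PDE_06117 rose in H2BK131A (5.29 ± 0.58, adjusted p = 6.32e-06) and fell in DlaeA (-2.07 ± 0.58, adjusted p = 0.00726), and PDE_06171 did the reverse (-3.53 ± 0.21, adjusted p = 3.9e-08 and 2.05 ± 0.21, adjusted p = 4.36e-06). Without WT 2 the values of PDE_06117 were 4.46 (adjusted p = 6.99e-07) and -2.90 (adjusted p = 2.31e-05), and without WT 3 they were 5.97 (adjusted p = 1.74e-06) and -1.38 (adjusted p = 0.0281). In serine and glycine synthesis 5 of 10 tested genes were higher, among them the glycine hydroxymethyltransferase PDE_04963 (3.76 ± 0.16, adjusted p = 3.42e-09), and 3 lower in H2BK131A. That is 50% and 30%, against 40.6% and 30.2% of all genes. Phosphoglycerate dehydrogenase PDE_02324, the first step of serine synthesis, was at 39, 55.2 and 41.8 in WT, 10.8, 11.1 and 13.2 in DlaeA, 25.7, 19.6 and 26.6 in H2BK123A and 344, 421 and 404 in H2BK131A. It fell in DlaeA (-1.86 ± 0.16, adjusted p = 8.27e-07) and H2BK123A (-0.89 ± 0.16, adjusted p = 0.000845) and rose in H2BK131A (3.09 ± 0.16, adjusted p = 1.16e-08).

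Aminotransferases and aminoadipate reduction had 10 of 16 genes higher and 0 lower in H2BK131A (62.5% and 0%), 8 and 3 in H2BK123A (50% and 18.8%), and 8 and 5 in DlaeA (50% and 31.2%). The branched-chain aminotransferase PDE_01215 was at 3742, 229.8 and 2658 in WT and 456, 467 and 495 in H2BK131A. It was not called there (-1.48, adjusted p = 0.11) but was lower without WT 2 (-2.74, adjusted p = 6.78e-06). The aromatic aminotransferase PDE_09759 was at 2.75, 2.74 and 3.45 in DlaeA (649.7, 197 and 496 in WT). The branched-chain PDE_03805 was at 182, 278 and 281 there (6.04, 8.39 and 6.8 in WT). Aminoadipate-semialdehyde dehydrogenase, which acts in lysine synthesis between homoisocitrate and saccharopine, is named in 5 genes. PDE_08329, low in WT, rose in H2BK131A from 1.39, 0.44 and 0.87 to 12.8, 15.3 and 13.5 (2.99 ± 0.18, adjusted p = 4.56e-08). Its namesakes with higher FPKM in WT, given after their values were seen, rose as well, PDE_08437 from 12.3, 9.79 and 14.6 to 67.5, 81 and 87.2 (2.60 ± 0.15, adjusted p = 2.93e-08) and PDE_07373 from 25.1, 28.3 and 26.2 to 48.9, 39.5 and 44.2 (0.71 ± 0.11, adjusted p = 0.000141). Proline synthesis had 3 of 5 higher in H2BK131A (60%) and 4 higher and 1 lower in DlaeA (80% and 20%). The one-carbon genes that serve methionine had 3 of 5 higher and 1 lower in H2BK131A (60% and 20%), 4 and 0 in H2BK123A (80% and 0%), and 3 and 0 in DlaeA (60% and 0%). Adenosylhomocysteinase PDE_07131, which returns homocysteine, rose in H2BK123A (1.05 ± 0.21, adjusted p = 0.00206) and H2BK131A (2.09 ± 0.21, adjusted p = 3.58e-06). In DlaeA it was at 167, 226 and 233, against 84.8, 168 and 124 in WT. The large subunit of carbamoyl phosphate synthase, PDE_03771, rose in H2BK131A (2.69 ± 0.26, adjusted p = 2.01e-06), and the small subunit PDE_09309, named here after its values were seen, was also higher there (0.68 ± 0.13, adjusted p = 0.000487). In DlaeA the large subunit was at 53.5, 58.8 and 60.5, against 12.5, 24.3 and 28.2 in WT. The small subunit was at 136, 172 and 159 in DlaeA, against 221, 254 and 284 in WT. Of 3 genes whose name joins this enzyme to aspartate carbamoyltransferase of pyrimidine synthesis, PDE_01746 fell in DlaeA from 759, 101 and 571 to 4.83, 4.37 and 3.95 (-6.04 ± 0.56, adjusted p = 1.92e-06, or -6.94, adjusted p = 3.08e-10 without WT 2). In H2BK131A it was lower (-1.41 ± 0.56, adjusted p = 0.0387), a call lost without H2BK131A 1, H2BK131A 2, H2BK131A 3, WT 1 or WT 3 in turn (-1.44 to -0.86, adjusted p = 0.0743 to 0.16), and its namesakes PDE_07967 (2.00 ± 0.28, adjusted p = 5.67e-05) and PDE_07965 (1.07 ± 0.14, adjusted p = 3.7e-05), given after their values were seen, rose. Aspartate-semialdehyde dehydrogenase PDE_01818, next to aspartate kinase in the route, rose in H2BK131A (1.5 ± 0.15, adjusted p = 2.58e-06).

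The activator named general control protein GCN4, PDE_08488, was at 891, 784 and 778 in WT, 532, 621 and 589.7 in DlaeA, 1349.8, 1192 and 1471 in H2BK123A and 1078, 1108 and 1039 in H2BK131A. It fell in DlaeA (-0.49 ± 0.14, adjusted p = 0.00671) and rose in H2BK123A (0.71 ± 0.14, adjusted p = 0.00153). In H2BK131A it was higher (0.40 ± 0.14, adjusted p = 0.0206), a call lost without H2BK131A 2 or WT 3 in turn (0.36 to 0.37, adjusted p = 0.0563 to 0.0634). Between the H2B mutants it was not called (-0.31 ± 0.14, adjusted p = 0.0605). In fungi GCN4 homologues are also controlled in translation, which these data do not measure. For comparison, 37 genes of amino acid breakdown, one of which, the acetylornithine aminotransferase PDE_03241, is also counted with ornithine above, had 23 higher and 10 lower in DlaeA, 20 and 7 in H2BK123A, and 16 and 14 in H2BK131A, with medians of 0.83, 0.57 and 0.20. The shares were 62.2% higher and 27% lower in DlaeA (46.3% and 23.6% of all genes), 54.1% and 18.9% in H2BK123A (33.5% and 13.1%), and 43.2% and 37.8% in H2BK131A (40.6% and 30.2%), the last near those of all genes. The widest change was indoleamine 2,3-dioxygenase PDE_05885, whose name is that of an enzyme that opens tryptophan breakdown, at 1074, 437 and 810.0 in WT and 0.2, 0.39 and 0.05 in DlaeA (-9.23 ± 0.25, adjusted p = 4.47e-11). Its namesakes, given after their values were seen, went both ways in DlaeA. PDE_02454 fell (-3.47, adjusted p = 1.62e-05) and PDE_05907 rose (3.02, adjusted p = 7.15e-05). PDE_02071 was at 118, 124 and 116 there, against 55.8, 35.2 and 63.0 in WT.

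Genes picked by name as markers of asexual structures differed between the strains beside these results, and not all in the same direction. The summed FPKM of the 4 marker genes (a pair named BrlA, FlbD and DIT1) ranged from 124 to 446 in WT, 789.8 to 819 in DlaeA, 101 to 209.7 in H2BK123A and 100.2 to 543 in H2BK131A, and none of the 4 was at 0 in all libraries of a strain. BrlA (PDE_00087), known in related fungi as the switch to conidiophore development, was at 18.1 ± 11.7 in WT, 435 ± 20.2 in DlaeA and 2.01 ± 0.0924 in H2BK131A (mean ± SD, n = 3). FlbD (PDE_03008) was at 100.1 ± 37.3, 371 ± 5.19 and 5.29 ± 1.31, and the second gene named BrlA (PDE_00079) at 0.387 ± 0.218, 2.14 ± 0.975 and 0.44 ± 0.251. DIT1 (PDE_01188) had another order, at 376, 5.93 and 164 in WT, 1.02, 0.91 and 0.61 in DlaeA and 92.7, 537 and 420.3 in H2BK131A. It was lower in DlaeA (-5.36, adjusted p = 0.00197) and not called in H2BK131A (1.87, adjusted p = 0.186). In H2BK131A DIT1 made up most of the marker sum. BrlA (PDE_00087) and FlbD were lower there than in WT (-2.42, adjusted p = 0.000293 and -3.96, adjusted p = 3.73e-08), and PDE_00079 was not called (0.05, adjusted p = 0.85). The sum is therefore not a measure of asexual structures. The part of asexual development in the levels of the biosynthesis genes was not tested.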

How the data were processed

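Per the file headers, the authors deposited 1 FPKM value per gene and library, with 2 decimals. The labels' protocol describes NlaIII and MmeI tag libraries, for which a value per kilobase is unusual. The sources used here do not give the aligner, counting tool, build or gene models, or whether reads were split between similar genes. Levels of different genes therefore depend on the lengths the authors used.

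The values were transformed to log2(FPKM + 1), which understates changes of low genes, and tested two-sided with limma 3.58.1 in R 4.3.3. The model had strain as its only term over the 12 libraries, moderated variances (with a trend on mean level) and 8 residual degrees of freedom. Of 9931 genes, the 9431 that reached an FPKM of 1 in 3 or more libraries entered, with Benjamini-Hochberg adjustment within each of 6 comparisons. The fit was tried on simulated data with 200 changed genes and, for each gene, the same spread in every strain. In the real data many more genes were called. The median SD over all tested genes was 0.223 in WT and 0.111 to 0.124 in the mutants. The simulation therefore cannot show how the fit handles the wider spread of WT.

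Genes, lists and tests were chosen with earlier results of these data known. The rule for named genes took the 8 largest called rises and falls of each mutant against WT, the 4 between mutants, the genes highest in WT over all and per pathway, those whose namesakes were called in other directions, and the 3 with the smallest changes. It took 62 of the 74. In other lists of pathway genes it took the gene with the largest called change in each mutant, and only part of these genes are named above. Same-numbered libraries did not deviate together (r from -0.224 to 0.211), so numbers were not taken as pairs. Low values of 136 genes were whole multiples of an assumed 1-read step within 0.1 in 81.7% of 1030 cases, among them the values that set the step. Factors per library, from 0.988 to 1.031, came only from values close to that step. They were held near 1 by this selection, so they show neither relative nor absolute depth. No sequences or coordinates are given. The alternatives were other pseudocounts, filters, scalings and models, and each library left out in turn. The value columns were all mapped to samples.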

Additional observations from a re-analysis of the deposited data

How the results depend on the processing

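Counts of genes called stayed within 1.5 times those reported, with 3 exceptions. In H2BK123A against WT 20 genes were lower with median ratio scaling (13 reported). In H2BK131A against WT 7 were lower when the fit held those 2 strains alone (12 reported). In H2BK123A against DlaeA 26 were higher with library weights (15 reported), a fit whose weights stopped before convergence. The cause was not tested. Leaving out 1 library gave 29 to 36 higher and 18 to 22 lower in DlaeA, 24 to 30 and 9 to 16 in H2BK123A, and 48 to 51 and 10 to 13 in H2BK131A, each against WT. With the replicate number as a block, 37 were higher and 20 lower in DlaeA, 29 and 13 in H2BK123A, and 49 and 12 in H2BK131A, and PDE_08096 in DlaeA was no longer called (0.69, adjusted p = 0.0569). The shares of all genes called under these alternatives are not given here, so the counts alone cannot be set against them.

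Against WT some directions turned. Over the libraries left out in turn, the log2 fold change in H2BK131A ranged from -0.89 to 0.97 for PDE_02287, from -0.28 to 0.59 for PDE_04748 and from -0.70 to 0.80 for PDE_05606, with the lowest value without WT 2 each time. In DlaeA, PDE_04220 (0.01 as reported) went to -0.27 with median ratio scaling and -0.19 with quantile normalization, and PDE_05687 (0.02) to -0.26 with median ratio scaling. The cause was not tested. Of 6066 values of named genes under all alternatives, 5666 kept direction and call, 212 lost the call, 83 gained it, 99 changed sign without a call and 6 reversed. Chosen after seeing the data, leaving out the 3 genes of other pathways left 36 higher and 19 lower in DlaeA. Read depth, which is unknown, limits what can be said of genes under an FPKM of 1.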
